A study of Mus musculus with 6 samples.

Results

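The genes described here are named for proteins of the cytosolic ribosome. They were taken from the deposited expression table by biotype and name. The rule itself uses no measured value, but it was chosen with earlier results of these data known. A gene was taken if it was protein coding and named Rpl or Rps followed by a digit, with or without a closing letter or the l of a paralogue, or if it was Rplp0, Rplp1, Rplp2 or Rpsa. The Rps6k kinases, pseudogenes with -ps in their name and Rpl35a were left out. This gave 82 of the 33300 features in the table, 50 named for the large subunit and 32 for the small one. Naive CD4 T cells of age-matched female mice had been stimulated for 5 days on plates coated with antibodies to CD3 and CD28. Every culture held the same Th17-polarising mixture of TGFβ1 at 1 ng/mL, IL-23 at 10 ng/mL, IL-6 at 50 ng/mL and IL-1β at 10 ng/mL, with antibodies to IL-4 and IFNγ at 10 μg/mL each. The cells came from 3 SLE1.2.3 mice and from 3 Control mice, whose genotype the labels give as WT. The series title calls the line lupus-prone, and by its name it combines the disease intervals Sle1, Sle2 and Sle3 of chromosomes 1, 4 and 7. Polyadenylated RNA was sequenced, 1 library a mouse, and levels are given in FPKM, the reads assigned to a gene per kilobase of its length and per 1000000 assigned reads.

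Ribosomal proteins fold around the ribosomal RNAs and are needed in equal numbers, since a ribosome holds a single copy of nearly every one of them. The proteins of the lateral stalk, which recruits the translation factors, are the main exception. Their mRNAs are among the most abundant in a growing cell, and many start with an uninterrupted run of cytosines and thymines, the terminal oligopyrimidine (TOP) motif, through which mTORC1 signalling sets their translation together. T cells that leave the naive state grow and build ribosomes before they divide, so these mRNAs are a large part of the RNA of an activated culture.

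The start regions of 6 members are shown because these genes carry the contrasts below, a typical gene of the small subunit (Rps6), 1 pair of source gene and paralogue (Rps27 and Rps27l), 2 further paralogues (Rpl22l1 and Rpl39l) and the gene whose level departed most from the rest among abundant members (Rpl13a). Each line runs 5′ to 3′ on the coding strand from 40 bases before the annotated start through the first 20 bases of the transcript, from RefSeq on GRCm38.p6, and capitals mark a stretch of at least 6 C and T letters read from a C within 10 bases of that start. In Rps27l and Rpl22l1 further C or T letters lie directly before the capitals, so the marked stretch is the inner part of a longer one.
Rps6: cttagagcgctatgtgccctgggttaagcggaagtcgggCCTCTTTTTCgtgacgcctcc
Rps27: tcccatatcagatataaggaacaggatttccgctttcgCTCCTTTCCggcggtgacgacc
Rps27l: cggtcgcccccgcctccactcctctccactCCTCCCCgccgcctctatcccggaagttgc
Rpl22l1: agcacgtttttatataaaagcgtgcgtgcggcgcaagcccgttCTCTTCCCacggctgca
Rpl39l: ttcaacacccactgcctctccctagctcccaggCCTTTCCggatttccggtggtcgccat
Rpl13a: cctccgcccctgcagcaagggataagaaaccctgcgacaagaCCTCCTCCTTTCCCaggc
The windows lie at chr4:86857348-86857407 on the minus strand for Rps6, chr3:90213629-90213688 on the minus strand for Rps27, chr9:66946046-66946105 on the plus strand for Rps27l, chr3:28805468-28805527 on the plus strand for Rpl22l1, chr16:10170188-10170247 on the plus strand for Rpl39l and chr7:45128726-45128785 on the minus strand for Rpl13a.

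A promoter window within 100 bases of the gene start was matched for 47 of the 82 genes, the nearest where a gene had several. All windows, given beside the members, were counted without that choice or distance limit, so the shares differ in how windows were selected. Such a stretch of C and T near the start was found in 19 of these 47 windows (40.4%), against 18.8% of all 32851 windows. The letters CCGGAAG, searched on both strands of the 300-base window, were in 31.9% of the members' windows and in 8.86% of all. AAGATGGC was in 8.51% of the members' windows and in 2.75% of all, and TATAAA was in 8.51% and 13.6%. These matches describe letters in a window; the annotated start can differ from the start used in these cells.

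Assigned reads, worked out from the spacing of low FPKM values, came, in units of 1000000 reads, to between 61.69 and 83.45 in SLE1.2.3 libraries and between 29.73 and 56.79 in Control libraries. Features annotated as ribosomal RNA took 2.37% of the reads of Control mouse 3 and between 0.187% and 0.281% in the other 5 libraries. The first principal component, with 78.4% of the variance, had scores of -4.25, -33.9 and -49 in SLE1.2.3 mice 1, 2 and 3 and between 28.6 and 29.5 in the Control mice. The SLE1.2.3 libraries were therefore spread widely, with mouse 1 nearest to the Control group. Il17a, which encodes the defining cytokine of Th17 cells, had 1676, 2275 and 2135 FPKM in SLE1.2.3 mice 1, 2 and 3, against 800.9, 616.4 and 394 FPKM in Control mice. Its relative Il17f had 779.2, 591.6 and 592.1 FPKM in SLE1.2.3 mice, against 700.1, 556.2 and 393.7 FPKM in Control mice, so both cytokine mRNAs were present in all libraries. Summed over 5 genes (Trdc, Trgc1, Trgc2, Zbtb16 and Cd163l1), γδ T cell markers reached 41, 206.2 and 448.5 FPKM in SLE1.2.3 mice 1, 2 and 3, against 2.7 to 3.05 FPKM in Control mice, and CD4 T cell markers 1662, 1331 and 1034 FPKM, against 1531 to 1630 FPKM.

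Ribosomal protein mRNA differed more among the SLE1.2.3 mice than between the groups. The 82 genes took 9.406%, 7.657% and 6.36% of the reads of SLE1.2.3 mice 1, 2 and 3, against 8.764%, 9.096% and 8.232% in Control mice 1, 2 and 3. Their FPKM values summed to 55414, 45214 and 37531 in SLE1.2.3 mice 1, 2 and 3, against 51509, 53491 and 48487 in Control mice 1, 2 and 3. SLE1.2.3 mouse 1 thus lay above every Control mouse, and SLE1.2.3 mice 2 and 3 lay below every one of them. The sum averaged 46050 ± 8970 FPKM over SLE1.2.3 mice and 51160 ± 2518 FPKM over Control mice (SD, n = 3 each). The log2 ratio of -0.15 was smaller than the pooled spread between libraries (0.205 on the log2 scale). Without SLE1.2.3 mice 2 and 3 the log2 ratio was 0.12, on the other side of 0.

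The same order was found gene by gene. In 76 of the 81 tested genes (93.8%) the SLE1.2.3 level was highest in mouse 1, lower in mouse 2 and lowest in mouse 3, against 29.9% of all 11378 tested genes. Over the 77 genes that averaged 20 FPKM or more, the median member stood at 108%, 88.0% and 73.2% of its Control mean in SLE1.2.3 mice 1, 2 and 3, and at 101%, 105% and 95.1% in Control mice 1, 2 and 3. SLE1.2.3 mouse 1 lay above all 3 Control mice in 54 of these 77 genes, while SLE1.2.3 mouse 2 lay below all of them in 68 genes and mouse 3 in 74. The share of all tested genes outside the Control range was not counted, so these counts have no background in the 3 SLE1.2.3 libraries. The median over all tested genes, on the log2 scale and relative to the Control mean, lay between 0.01 and 0.02 in these 3 libraries. The SD of the members' log2 ratios within a library was 0.121, 0.11 and 0.151 in SLE1.2.3 mice 1, 2 and 3. It was between 0.0274 and 0.0408 in the Control mice, which enter the Control mean themselves. Over all tested genes, which include low ones, the SD on log2(FPKM + 1) was 0.414, 0.612 and 0.745 in SLE1.2.3 mice 1, 2 and 3. In Control mice it was 0.135 to 0.17. Genes of similar level were not compared.

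**Figure D1:**
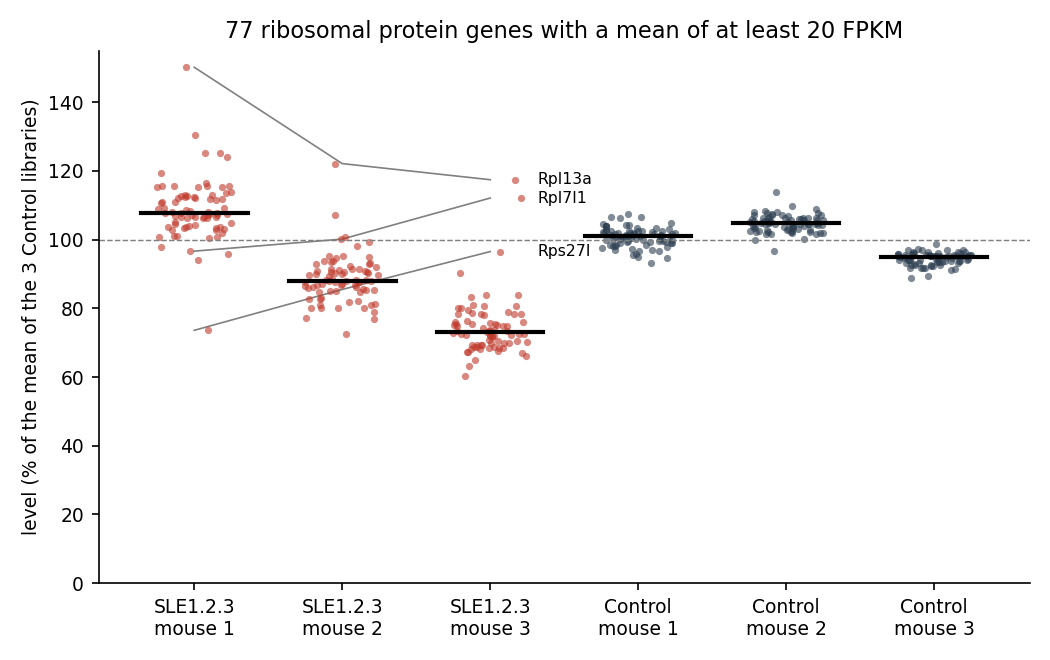
Level of each of the 77 ribosomal protein genes that averaged 20 FPKM or more, by library, as a percentage of the gene's mean over the 3 Control libraries. Points are genes, black bars are medians and grey lines follow 3 genes across the SLE1.2.3 libraries. The medians were 108%, 88.0% and 73.2% in SLE1.2.3 mice 1, 2 and 3 and between 95.1% and 105% in the Control mice.

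Between the groups, 0 of the 81 tested genes passed limma at an adjusted p of 0.05, where 15.2% of all tested genes did. At an unadjusted p below 0.05 there were 3, all higher in SLE1.2.3 cells, where 35.0% of all tested genes reached that level in either direction. A count model, limma voom on the recovered reads, also called 0, where it called 13.5% of all tested genes, with 4 at an unadjusted p below 0.05 and a smallest adjusted p of 0.06. The fitted log2 change (SLE1.2.3 minus Control) was below 0 in 74 genes, where it was in 47.5% of all tested genes. Its median was -0.16, against 0.01 over all tested genes, and it ranged from -0.39 for Rpl36a to 1.36 for Rpl39l. Rescaled to a common FPKM sum, the median was -0.05, against 0.11 over all tested genes. The values of the groups overlapped in 77 genes. SLE1.2.3 values lay above all Control values in 3 genes (Rpl39l, Rpl36al and Rpl13a), where 23.9% of all tested genes did so, and below all of them in 1 gene (Rps2), where 17.7% did.

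The call count depended on SLE1.2.3 mouse 1, as it did over all tested genes. Without that library 23 of the 81 tested members were called. Of these 22 fell and 1, Rpl39l, rose, and the median log2 change was -0.30. In that fit 32.5% of all tested genes were called, 2128 higher and 1573 lower, so the members' share was not above the background. Among the 22 were Rpl36a, Rps16, Rpl3, Rps2, Rps19, Rpl5 and Rplp2. Without SLE1.2.3 mouse 3 the median was -0.02, and without SLE1.2.3 mice 2 and 3 it was 0.11, with 0 genes called. That last fit has 1 SLE1.2.3 library, which is assumed to vary like the Control group.

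The summed markers of γδ T cells, given above, of CD8 T and NK cells and of B cells ran through the SLE1.2.3 mice in the opposite order, lowest in mouse 1 and highest in mouse 3, while the myeloid sum had the order of the ribosomal proteins. CD8 T and NK cell markers summed to 30.06, 90.19 and 154.2 FPKM in SLE1.2.3 mice 1, 2 and 3, against 10.83 to 12.03 FPKM in Control mice, with Ncr1 below 0.5 FPKM throughout. B cell markers summed to 59.23, 86.99 and 153.4 FPKM in SLE1.2.3 mice 1, 2 and 3, against 1.542 to 3.3 FPKM in Control mice, with Ms4a1 and Pax5 below 0.5 FPKM throughout. In SLE1.2.3 mice nearly all of that sum was Igkc, the immunoglobulin kappa constant gene, at 56.38, 86.23 and 152 FPKM in mice 1, 2 and 3, against 0.695 to 1.644 FPKM in Control mice, and it was the single B cell marker of 5 that passed the filter on low values. Myeloid markers summed to 10.06, 3.906 and 2.552 FPKM in SLE1.2.3 mice 1, 2 and 3, against 7.014, 7.916 and 8.675 FPKM in Control mice, with mouse 1 above and mice 2 and 3 below all Control mice and with Itgam, Csf1r and Adgre1 below 0.5 FPKM throughout. All 5 erythroid markers were below 0.5 FPKM in every library. Trdc, a constant chain of the γδ receptor, had 4.957, 18.91 and 45.18 FPKM in SLE1.2.3 mice 1, 2 and 3, against 0.592 to 0.661 FPKM in Control mice. Cd4 had 257.3, 144.1 and 71.61 FPKM in SLE1.2.3 mice 1, 2 and 3, against 246.1 to 264.5 FPKM in Control mice. The part of these cells in the ribosomal protein levels was not tested, and in such bulk samples fewer cells of a type and less RNA per cell cannot be told apart.

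Levels spanned several orders of magnitude, although 74 of the 82 members averaged 100 FPKM or more. The mean over the 6 libraries had a median of 558.1 FPKM over the 81 tested genes, against 7.97 FPKM over all tested genes. Rplp1, an acidic protein of the lateral stalk, was the highest, with 3627, 2889 and 2294 FPKM in SLE1.2.3 mice 1, 2 and 3, against 3348, 3556 and 3301 FPKM in Control mice. Rplp0, the base on which the stalk proteins sit, came next with 2209, 1864 and 1478 FPKM in SLE1.2.3 mice, against 2013, 2007 and 1865 FPKM in Control mice. In both genes SLE1.2.3 mouse 1 stood above the Control mice and mouse 3 below them. Rps3a1 and Rps15 followed, with ranges that overlapped in SLE1.2.3 cells (1454 to 1905 and 1280 to 1920 FPKM) and in Control cells (1759 to 1961 and 1639 to 1831 FPKM). Rpl4, at 1063 to 1536 FPKM in SLE1.2.3 cells and 1335 to 1478 FPKM in Control cells, came next and was lower than both in each of the 6 libraries. Levels of near-identical genes and of genes with many pseudogenes depend on how multi-mapping reads were assigned, which is not given in the sources used here.

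**Figure D2:**
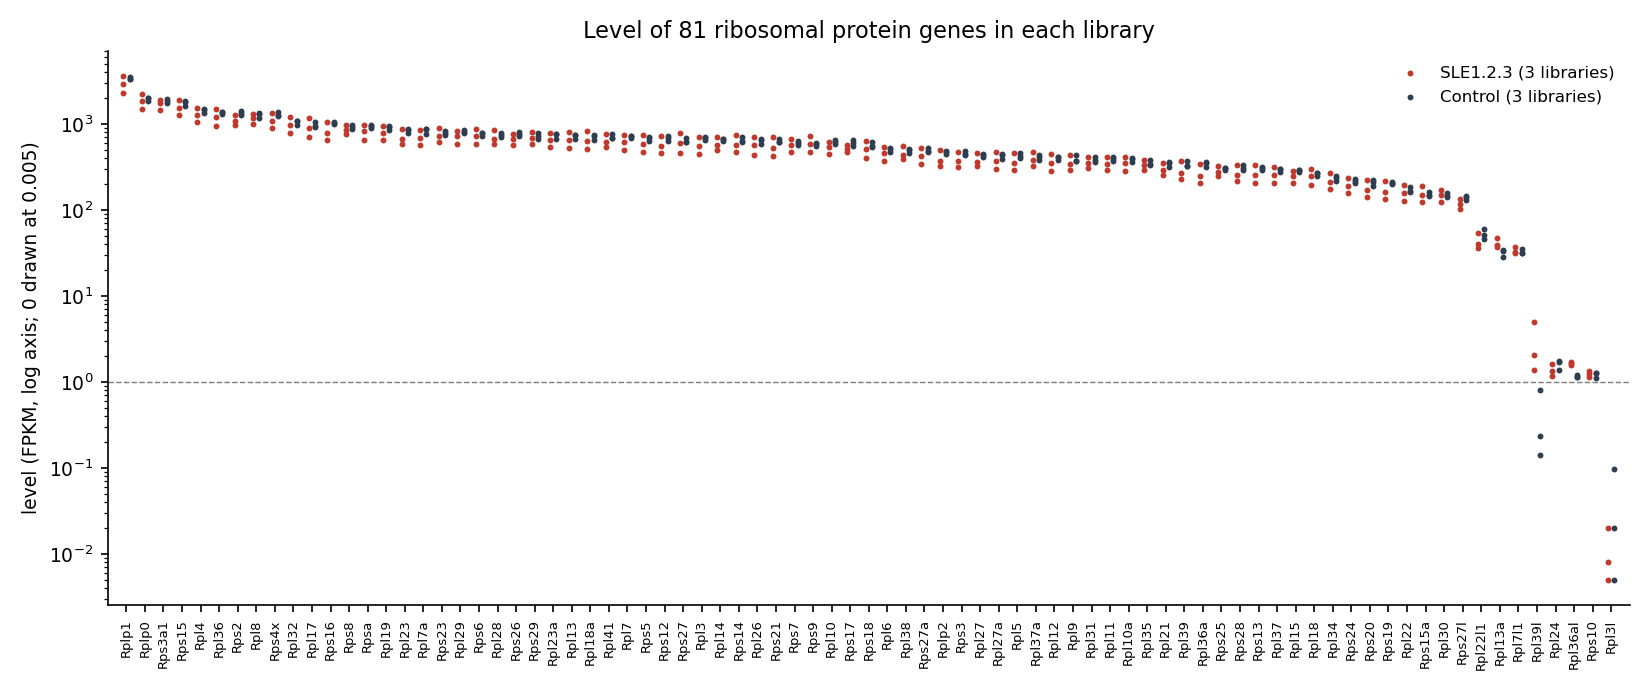
Level of 81 of the 82 ribosomal protein genes, with 1 not drawn, in each of the 3 SLE1.2.3 and 3 Control libraries, in FPKM on a log axis with 0 drawn at 0.005, ordered by mean. Most lie well above the dashed line, the paralogues and Rpl13a lie lower, and Rpl24, Rps10, Rpl36al, Rpl39l and Rpl3l lie near or below that line, at 1 FPKM.

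Among the large subunit genes the lateral stalk and its base (Rplp0, Rplp1, Rplp2 and Rpl12) had a median log2 change of -0.20. Rplp2, the partner of Rplp1 in the stalk, had 499.1, 375.3 and 321.6 FPKM in SLE1.2.3 mice, against 467.1, 492.1 and 444.9 FPKM in Control mice (log2 change -0.25 ± 0.17 SE, adjusted p = 0.32). Rpl5 and Rpl11 bind the small ribosomal RNA of the large subunit, and as a free complex they inhibit Mdm2, the ubiquitin ligase of p53. Rpl5 had 461.9, 355.5 and 294.7 FPKM in SLE1.2.3 mice, against 429.6, 455.3 and 402.1 FPKM in Control mice (log2 change -0.23 ± 0.17, adjusted p = 0.36). Rpl11 had 408.5, 339.8 and 295 FPKM in SLE1.2.3 mice, against 393, 412 and 369.7 FPKM in Control mice (log2 change -0.18 ± 0.13, adjusted p = 0.36). In all 3 genes SLE1.2.3 mice 2 and 3 lay below the Control range while mouse 1 lay within or above it.

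The 7 genes at the rim of the exit tunnel, through which the new protein leaves, had a median log2 change of -0.16. The 4 genes whose proteins reach towards the peptidyl transferase centre, Rpl3, Rpl4, Rpl8 and Rpl10, had a median of -0.18. Rpl3 had 698.6, 548.6 and 445.9 FPKM in SLE1.2.3 mice, against 687, 716.2 and 651.4 FPKM in Control mice (log2 change -0.30 ± 0.17, adjusted p = 0.25). SLE1.2.3 mouse 1 was inside the Control range and mice 2 and 3 were below it. Rpl36a, a large subunit gene on the X chromosome, had the lowest log2 change of all members. It had 347, 250.2 and 207.7 FPKM in SLE1.2.3 mice, against 355.8, 363.4 and 314.3 FPKM in Control mice (log2 change -0.39 ± 0.19, adjusted p = 0.20), again with mouse 1 inside the Control range.

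The 32 small subunit genes had a median log2 change of -0.18, against -0.16 for the 49 tested large subunit genes. Rps2, which lies near the channel where mRNA enters, had 1271, 1095 and 982.8 FPKM in SLE1.2.3 mice, against 1343, 1433 and 1282 FPKM in Control mice. It was the single member with every SLE1.2.3 value below every Control value, and it did not pass (log2 change -0.28 ± 0.13, adjusted p = 0.17; adjusted p = 0.034 without SLE1.2.3 mouse 1). Rps16, a protein of the head of the small subunit, had 1062, 792.7 and 649 FPKM in SLE1.2.3 mice, against 1042, 1051 and 992 FPKM in Control mice (log2 change -0.33 ± 0.18, adjusted p = 0.25). The 14 genes of the head had a median of -0.21.

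Rps6, the substrate of the S6 kinases downstream of mTORC1, whose start region is printed above, had 869.5, 716.4 and 584.2 FPKM in SLE1.2.3 mice, against 784.3, 790.4 and 732.6 FPKM in Control mice. SLE1.2.3 mouse 1 stood above and mice 2 and 3 below all Control mice, and the fitted change was small (log2 -0.11 ± 0.16, adjusted p = 0.66). Rps14, at 742.2, 569.3 and 472.1 FPKM in SLE1.2.3 mice, against 617.8, 707.7 and 633.3 FPKM in Control mice, had the same arrangement (adjusted p = 0.55). Loss of a copy of RPS14 underlies the anaemia of the human 5q- syndrome. Rps19, the gene most often mutated in human Diamond-Blackfan anaemia, had 219.7, 163.8 and 135.3 FPKM in SLE1.2.3 mice, against 205, 209.2 and 198.9 FPKM in Control mice (log2 change -0.27 ± 0.17, adjusted p = 0.31). The 17 listed genes of that disease had a median of -0.18. Rpsa, the small subunit protein also known as a laminin receptor, had 985.3, 828.1 and 653.2 FPKM in SLE1.2.3 mice, against 936.8, 984.5 and 901 FPKM in Control mice (adjusted p = 0.38).

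Because nearly all members shared the order of the libraries, the values were also scaled to a common ribosomal protein total, a choice made after seeing the data. This scaling moves the median of all tested genes by 0.16 on the log2 scale, and changes under it are relative to the other ribosomal protein genes. In it 1 member passed, where 5.68% of all tested genes did.

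Rpl13a, a large subunit protein that, once released from the ribosome, silences some inflammatory mRNAs in human myeloid cells, lies on chromosome 7. It had 47.67, 38.77 and 37.28 FPKM in SLE1.2.3 mice, against 33.8, 33.07 and 28.35 FPKM in Control mice. All 3 SLE1.2.3 values were above all 3 Control values, without passing (log2 change 0.36 ± 0.12, adjusted p = 0.081; relative to the other members 0.53 ± 0.14, adjusted p = 0.065). Its level was well under those of most other members. In GENCODE M21 29.4% of its exonic bases are shared on the same strand with Gm45713, and no source used here says how reads in shared bases were counted.

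Rps9, a small subunit gene also on chromosome 7 and named after its values were seen, had 721.8, 585.5 and 469.4 FPKM in SLE1.2.3 mice, against 591.6, 596.5 and 556.7 FPKM in Control mice, with mouse 1 above, mouse 2 inside and mouse 3 below the Control range. The 14 members on chromosome 7 had a median log2 change of -0.18, against -0.16 for the 67 tested on other chromosomes, and the 5 on chromosome 4 and the 3 on chromosome 1 had medians of -0.12 and -0.11.

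**Figure D3:**
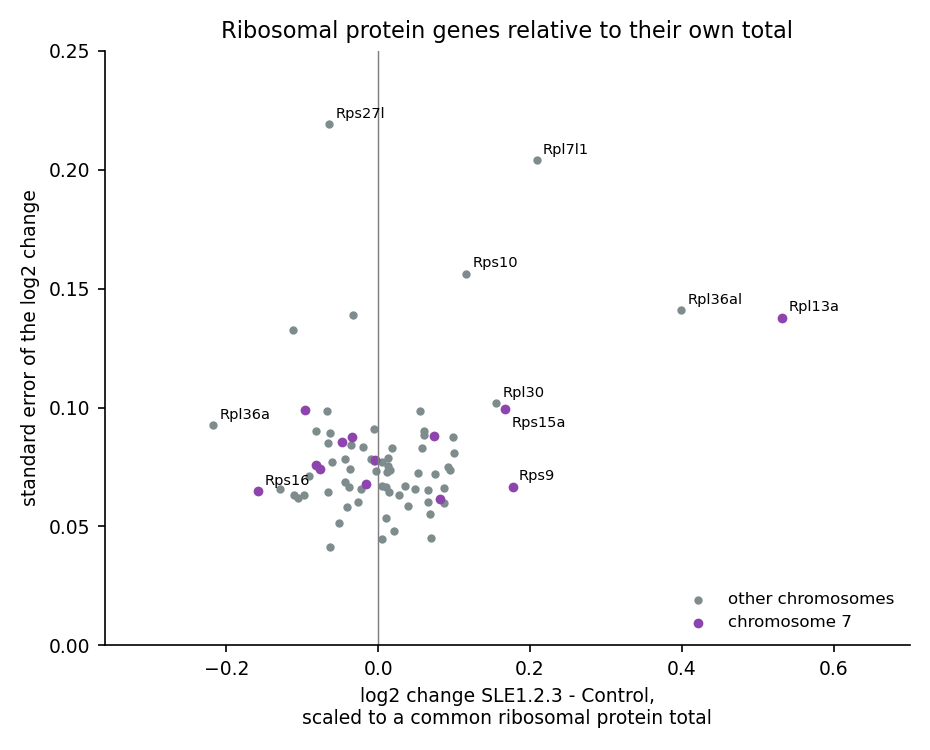
Log2 change (SLE1.2.3 minus Control) of tested ribosomal protein genes after scaling to a common ribosomal protein total, against its standard error, for 79 of the 81 genes, with Rpl39l (1.46 ± 0.40) off the axis and 1 other gene not drawn. Purple points are 13 of the 14 genes on chromosome 7. Rpl13a lies farthest to the right at 0.53, and Rpl36a lies farthest to the left at -0.22.

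Paralogues named with an l did not follow their source genes in every case. Rps27l, a paralogue of Rps27 that p53 induces, had 102.1, 118.6 and 133.9 FPKM in SLE1.2.3 mice, against 141.2, 145.2 and 129.7 FPKM in Control mice (log2 change -0.24 ± 0.11, adjusted p = 0.19). Rps27 had 794.8, 601.2 and 459.3 FPKM in SLE1.2.3 mice, against 614.7, 680 and 610 FPKM in Control mice (log2 change -0.07 ± 0.20, adjusted p = 0.83). The source gene was highest in SLE1.2.3 mouse 1 and the paralogue was lowest there, and the start regions of both, printed above, hold a C and T run. Rpl7l1 shared the order of Rps27l, with 31.63, 32.78 and 36.69 FPKM in SLE1.2.3 mice, against 35.21, 31.65 and 31.31 FPKM in Control mice, while Rpl7 was at 745.2, 613.3 and 493.4 FPKM, against 732.7, 730 and 693.6 FPKM. These 2 paralogues were the 2 tested members with the lowest SLE1.2.3 level in mouse 1, the next in mouse 2 and the highest in mouse 3, an order that 35.1% of all tested genes had.

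Rpl22l1, which can replace Rpl22 in the ribosome, went with its source. It had 53.93, 40.28 and 35.77 FPKM in SLE1.2.3 mice, against 50.98, 59.59 and 46.45 FPKM in Control mice (log2 change -0.28 ± 0.17, adjusted p = 0.28). Rpl22, which αβ T cell development requires in mice, had 197.5, 156.2 and 125.9 FPKM in SLE1.2.3 mice, against 168.4, 183.2 and 160.9 FPKM in Control mice (log2 change -0.12 ± 0.17, adjusted p = 0.65). In both genes SLE1.2.3 mice 2 and 3 lay below all Control mice.

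Rpl39l, a paralogue of Rpl39 known for its expression in male germ cells of mice, had the largest log2 change of all members at a low level. It had 2.033, 1.385 and 4.95 FPKM in SLE1.2.3 mice, against 0.143, 0.233 and 0.809 FPKM in Control mice, from 71 to 309 reads, against 6 to 20 reads. Every SLE1.2.3 value was above every Control value, with mouse 3 the highest in each group, and it did not pass (log2 change 1.36 ± 0.36, adjusted p = 0.053). Its Control mean was under the filter of 1 FPKM, so it was tested only through the SLE1.2.3 libraries and its direction was largely set by that. The alternatives went both ways. It did not pass with no filter (adjusted p = 0.13), with voom (0.06) or with a common ribosomal protein total (0.077). Of the 6 fits without a mouse it passed in 1, without SLE1.2.3 mouse 1 (0.035), and its adjusted p reached 0.16. It passed with a common FPKM sum (0.0063), a pseudocount of 0.1 (0.042), the mouse number as a block (0.030) and array weights (0.025). Rpl39 itself had 368.8, 272.5 and 229.6 FPKM in SLE1.2.3 mice, against 325.6, 371.1 and 324.6 FPKM in Control mice (adjusted p = 0.35).

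Rpl36al had 1.665, 1.713 and 1.554 FPKM in SLE1.2.3 mice, against 1.189, 1.132 and 1.143 FPKM in Control mice, with no overlap (log2 change 0.29 ± 0.08, adjusted p = 0.055; adjusted p = 0.030 with no variance trend). Its source Rpl36a, given above, had the lowest change of all members. Rpl3l, a paralogue of Rpl3 found in striated muscle, had at most 9 reads in any library and was not tested.

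**Figure D4:**
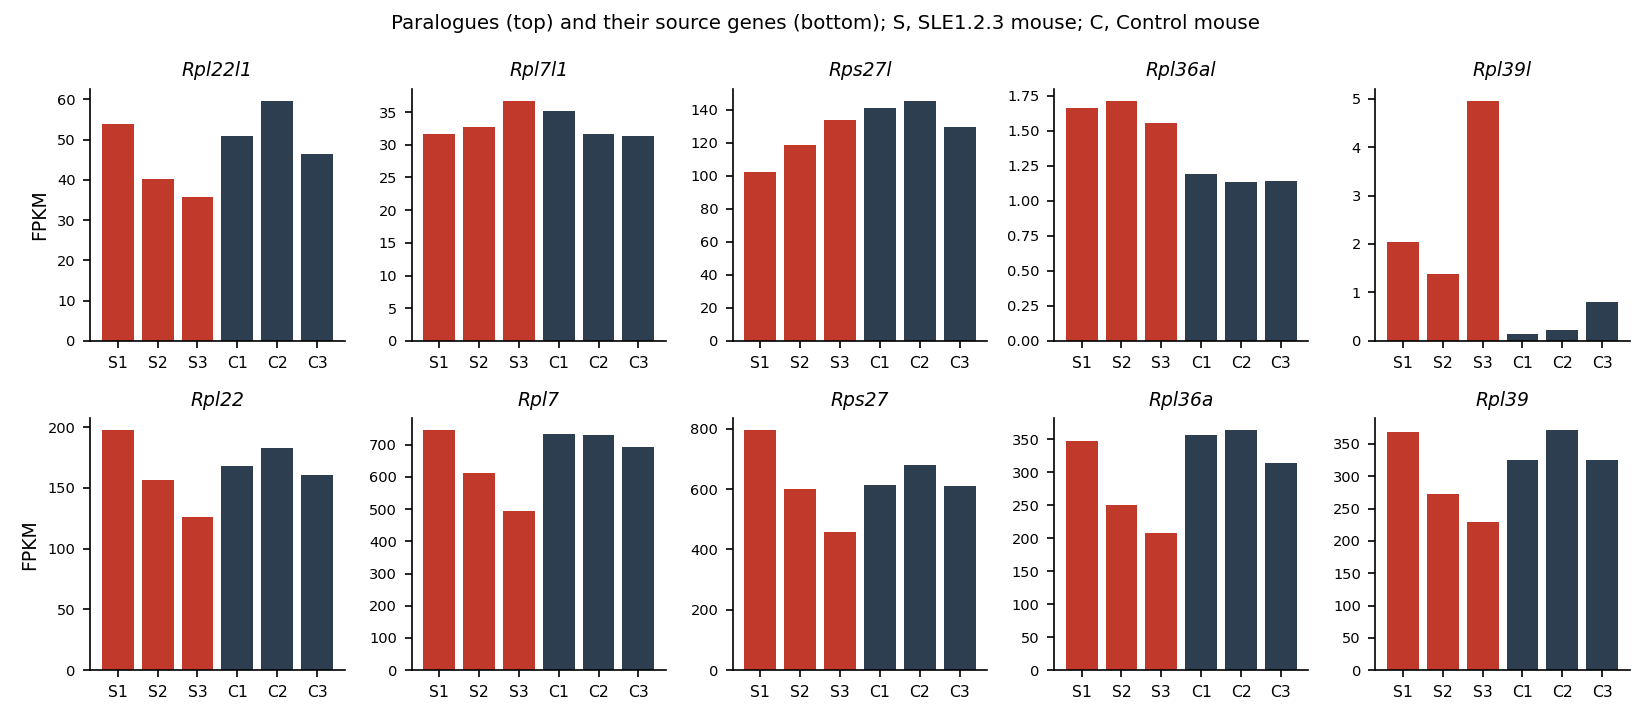
Level in FPKM of 5 paralogues (top) and their source genes (bottom) in SLE1.2.3 mice 1 to 3 (S1 to S3, red) and Control mice 1 to 3 (C1 to C3, dark). The source genes are highest in S1 and lowest in S3 among the SLE1.2.3 mice; Rps27l and Rpl7l1 show the opposite order, and Rpl39l is highest in S3 at 4.95 FPKM.

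Several members that every cell needs were listed near 1 FPKM. Rpl24, which bridges the subunits, had 1.629, 1.338 and 1.163 FPKM in SLE1.2.3 mice, against 1.736, 1.368 and 1.698 FPKM in Control mice (adjusted p = 0.44). Rps10, a protein of the head, had 1.229, 1.15 and 1.331 FPKM in SLE1.2.3 mice, against 1.255, 1.105 and 1.281 FPKM in Control mice (adjusted p = 0.92). The groups overlapped in both. In GENCODE M21 47% of the exonic bases of Rpl24, 20.6% of those of Rps10 and 24.5% of those of Rpl36al are shared on the same strand with another annotated gene (Gm28037, RPS10-NUDT3 and Gm49383). Whether this lowered their values was not tested, and these levels are not read here as levels of the mRNA.

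Across the 77 members that averaged 20 FPKM or more, the log2 change was not related to feature length (Pearson's r -0.02, Spearman's rho -0.08) and hardly to level (r -0.27, rho 0.00076). These correlations are across genes that share the 6 libraries and are given as a description. Over the 6 libraries 71 of the 81 tested members correlated with the members' mean profile at an r of at least 0.9, against 5.42% of the 11297 other tested genes. That mean holds the members themselves, so part of this contrast is built in. The 5 other genes most like that profile were Tpt1 (r 0.999), Tg, Pnpla8 and Pdcd6 (r 0.996 each) and Rpl6l (r 0.995). Tpt1, a translationally controlled tumour protein whose mRNA is a known TOP mRNA, had 1574, 1191 and 980.1 FPKM in SLE1.2.3 mice, against 1419, 1478 and 1326 FPKM in Control mice (adjusted p = 0.47). Tg, the thyroglobulin gene, had 21.65, 8.642 and 3.767 FPKM in SLE1.2.3 mice, against 12.93, 16.48 and 10.97 FPKM in Control mice, a wider spread in the same order.

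All 3 tested ribosomal protein genes with other names had the same order in the SLE1.2.3 mice, where 29.9% of all tested genes did. Of the 3, 0 passed limma and 1 had an unadjusted p below 0.05, where 15.2% and 35.0% of all tested genes did. Of these, Fau and Rack1 are given here. Fau had 1163, 858.1 and 665 FPKM in SLE1.2.3 mice, against 900.8, 936.1 and 862.3 FPKM in Control mice (adjusted p = 0.90). Rack1, which docks signalling proteins on the small subunit, had 426.2, 349.1 and 279.8 FPKM in SLE1.2.3 mice, against 372.3, 362 and 331.7 FPKM in Control mice (adjusted p = 0.90). In both, SLE1.2.3 mouse 1 stood above and mouse 3 below the Control range.

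Other genes around translation were described from lists, which also hold growth regulators, genes around p53 and pseudogenes of ribosomal proteins. Of 355 tested genes in all, 10 rose and 14 fell in SLE1.2.3 cells, where 15.2% of all tested genes were called. The list around p53 held 2 of the rises and 5 of the falls. The number of calls depended on single libraries, as it did over all tested genes. Without SLE1.2.3 mouse 1, 72 of the listed genes were called, where 32.5% of all tested genes were. Without SLE1.2.3 mouse 2, 1 (Phlda3) was called, where 240 of all 11378 tested genes were. Leaving out a Control mouse left 3 or 4 calls, where between 261 and 327 of all tested genes were called. Of the 13 elongation and termination factors 0 passed limma, while 2 had an unadjusted p below 0.05 (Eef1g and Gspt1). Their summed level was 10800, 8978 and 7452 FPKM in SLE1.2.3 mice, against 10300, 10230 and 9380 FPKM in Control mice, the same arrangement as the ribosomal proteins. Of it Eef1a1, which brings aminoacyl-tRNA to the ribosome, made up 5939, 4884 and 3957 FPKM in SLE1.2.3 mice and 5409, 5373 and 4844 FPKM in Control mice. Of 35 initiation factors 1 fell, Eif2s3x, with 42.59, 46.51 and 49.08 FPKM in SLE1.2.3 mice, against 59.29, 59.99 and 57.58 FPKM in Control mice (log2 change -0.35 ± 0.07, adjusted p = 0.027), and 14 of the 35 had the order of the ribosomal proteins, where 29.9% of all tested genes did.

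The genes that build ribosomes did not share that order. Of 50 biogenesis genes 7 had it and 40 (80.0%) had the opposite one, with mouse 3 highest, where 35.1% of all tested genes did. Their summed level was 1548, 1595 and 1669 FPKM in SLE1.2.3 mice, against 1962, 1756 and 1759 FPKM in Control mice, so all SLE1.2.3 sums lay below all Control sums. Of the 50, 2 fell and 0 rose, where 15.2% of all tested genes were called. Ncl, the nucleolin gene, had 112.7, 112.6 and 117.5 FPKM in SLE1.2.3 mice, against 142.7, 140.2 and 138.1 FPKM in Control mice (log2 change -0.29 ± 0.06, adjusted p = 0.028). Tcof1, the treacle gene that supports transcription of ribosomal RNA genes, had 28.04, 26.78 and 30.18 FPKM in SLE1.2.3 mice, against 41.23, 33.9 and 38.5 FPKM in Control mice (log2 change -0.40 ± 0.09, adjusted p = 0.035). Both calls ended with scaling to a common FPKM sum, under which 9 of the 355 listed genes were called in place of 24. Of 26 tested subunits and factors of RNA polymerases I and III, Taf1c rose (log2 change 0.37 ± 0.08, adjusted p = 0.032) and 25 did not pass.

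**Figure D5:**
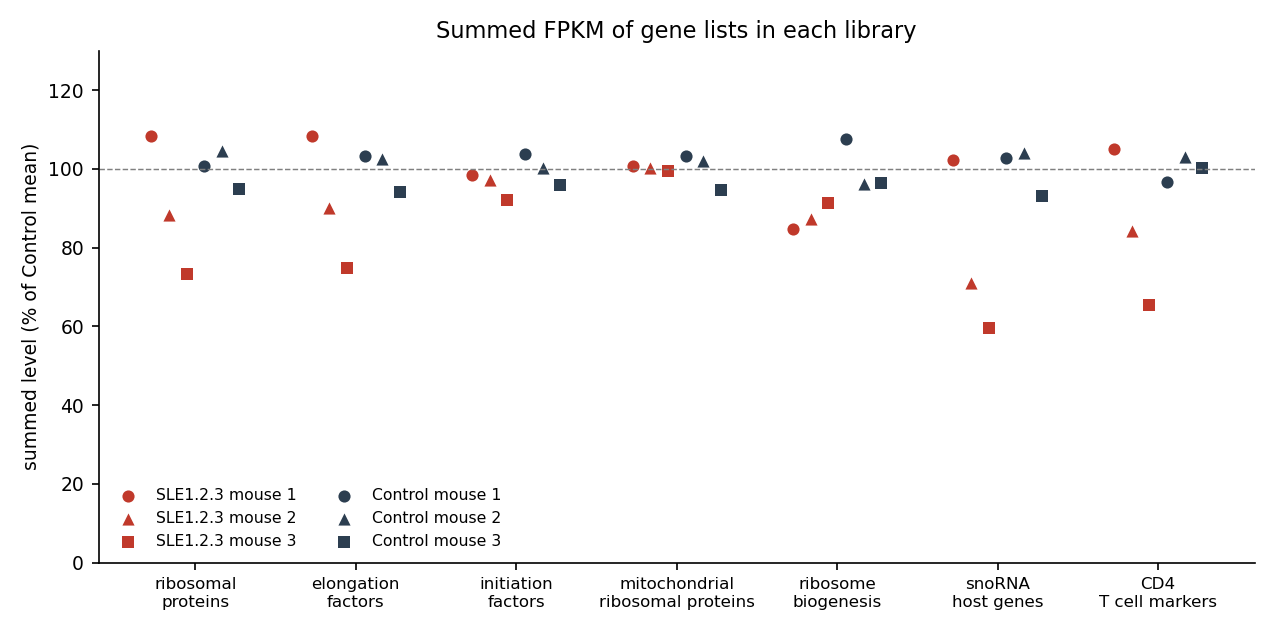
Summed FPKM of 7 gene lists in each library, as a percentage of the mean of the 3 Control libraries, with SLE1.2.3 mice in red left of Control mice in dark. Ribosomal proteins, elongation factors, snoRNA host genes and CD4 T cell markers differ among the SLE1.2.3 mice, with mouse 1 highest, while mitochondrial ribosomal proteins stay near 100% and the 3 SLE1.2.3 biogenesis sums lie below the Control sums.

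Genes that host small nucleolar RNAs in their introns often carry the same TOP start as ribosomal protein genes. Of 12 tested 9 had the order of the ribosomal proteins, where 29.9% of all tested genes did, and 1, Gas5, fell, where 15.2% of all tested genes were called. Gas5, a host whose spliced transcript is degraded when it is translated, had 30.8, 20.55 and 19.2 FPKM in SLE1.2.3 mice, against 61.73, 62.11 and 54.49 FPKM in Control mice (log2 change -1.33 ± 0.18, adjusted p = 0.0098). All SLE1.2.3 values were far below all Control values. This included mouse 1, in which the median of the 77 abundant ribosomal protein genes stood at 108% of its Control mean. Over the fits that each left out a mouse its log2 change lay between -1.53 and -1.20 and its adjusted p between 0.00013 and 0.056, with the call lost without SLE1.2.3 mouse 2, Control mouse 1 or Control mouse 2.

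Of 23 tested genes of TOP mRNA and mTORC1 control 1 rose, Lamtor4, a subunit of the complex that recruits mTORC1 to lysosomes, with 24.48, 25.58 and 26.78 FPKM in SLE1.2.3 mice, against 17.71, 18.73 and 17.33 FPKM in Control mice (log2 change 0.49 ± 0.06, adjusted p = 0.0094). Of 16 growth regulators Mycn rose and Mxd3 fell. Over all tested genes 15.2% were called. Mycn had 1.509, 5.623 and 5.583 FPKM in SLE1.2.3 mice, against 0.181, 0.166 and 0.306 FPKM in Control mice (adjusted p = 0.024), and was tested only through the SLE1.2.3 libraries. Myc, the main driver of ribosome production in activated T cells, had 48.41, 52.24 and 48.65 FPKM in SLE1.2.3 mice, against 65.99, 54.3 and 57.25 FPKM in Control mice, with no overlap and without passing (adjusted p = 0.11).

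Of 19 tested genes around p53 and free ribosomal proteins 5 fell and 2 rose, where 15.2% of all tested genes were called. Phlda3, a p53 target that restrains Akt, had 12.9, 13.49 and 11.99 FPKM in SLE1.2.3 mice, against 27.55, 23.83 and 21.81 FPKM in Control mice (log2 change -0.88 ± 0.10, adjusted p = 0.0071), and it passed in each of the 6 fits without a mouse. Cdkn1a, the p53-induced inhibitor of the cell cycle, had 53.05, 52.45 and 48.63 FPKM in SLE1.2.3 mice, against 92.07, 87.17 and 74.53 FPKM in Control mice (log2 change -0.70 ± 0.09, adjusted p = 0.010). Both genes were lower in all SLE1.2.3 mice than in any Control mouse. Gtse1 and Zmat3 fell as well, by 0.57 and 0.58 on the log2 scale. Named after their values were seen, Sesn2 fell by 0.59 while Plk3 and Btg2 had log2 changes of 0.73 and 0.45. In the list of ribosome rescue and nuclear export, Map3k20, the kinase that senses collided ribosomes, fell by 1.06 (adjusted p = 0.017), the importin gene Ipo5 fell by 0.41 (adjusted p = 0.022) and 14 of 16 did not pass.

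The 77 mitochondrial ribosomal protein genes gave a contrast within the same libraries. They summed to 1248, 1242 and 1235 FPKM in SLE1.2.3 mice, against 1282, 1264 and 1175 FPKM in Control mice. SLE1.2.3 sums lay inside the Control range, 16 of the 77 had the order of the cytosolic genes, where 29.9% of all tested genes did, and the median log2 change was -0.01. Of the 77, Mrpl57, Mrpl44 and Mrps11 rose and Mrps14 fell, by 0.39 on the log2 scale, where 15.2% of all tested genes were called. Pseudogenes of ribosomal proteins, by contrast, went with the cytosolic genes. Of the 65 tested pseudogenes named -ps 50 (76.9%) had the order of the cytosolic genes, where 29.9% of all tested genes did. Of the 65, 2 rose (Rpl35a-ps2 among them) and 1 fell (Rps2-ps10), where 15.2% of all tested genes were called. Reads of a pseudogene and of its source gene can be near identical, and how they were shared out is not given in the sources used here.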

How the data were processed

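RNA was measured in 6 libraries, 3 SLE1.2.3 and 3 Control, grouped by title. The authors deposited FPKM values for 33300 features. The submitters' processing notes name cutadapt 2.10, FastQC 0.11.9, STAR 2.7.3a, featureCounts 2.0.0, DESeq2 1.24.0 and mm10, with no role or order. No source used here gives the strand, multi-mapping or annotation settings, so reads of near-identical or overlapping genes are uncertain. All 82 members had the identifier and coordinates of GENCODE M21.

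Assigned reads were recovered from the FPKM steps: 100.0% of values under 30 reads were whole within 0.15 of a read. The file holds no counts, so genes that averaged 1 FPKM or more (11378, with 81 members) were fitted as log2(FPKM + 1) with limma 3.58.1 in R 4.3.3, genotype as the term and a mean-variance trend, and p-values were adjusted by Benjamini-Hochberg over all tested genes with a threshold of 0.05. This scale understates changes of low genes, and the p-values rest on the spread among 3 mice a group. The test was checked on simulated counts, with genes drawn independently and the same spread in both groups. The SLE1.2.3 libraries were spread more widely than the Control libraries and many genes moved together, which that check does not cover.

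Members and lists were chosen with earlier results of these data known. Named members are those past the threshold, the 4 largest changes in each direction among the rest, the 5 highest and 5 lowest, any member failing the filter, paralogues with their sources, and Rplp0, Rplp1, Rplp2, Rpl5, Rpl11, Rpl22, Rps19, Rps6, Rps14 and Rpsa. Of each other list the called genes with the smallest adjusted p are named, up to 4, or 2 where none passed, with Fau, Rack1 and Myc; Eef1a1 was added after its values were seen. Some genes this rule names are not reported here. Alternatives changed the pseudocount, filter, scaling, variance model, block and libraries. SLE1.2.3 and Control mice share only numbers, not animals.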

Additional observations from a re-analysis of the deposited data

How the results depend on the processing

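Over all tested genes 1733 passed (SLE1.2.3 against Control, 1098 higher, 635 lower). The count was 798 with no filter, 1129 with a mean of at least 5 FPKM, 646 scaled to a common ribosomal protein total (chosen after seeing the data), 5665 with array weights, 665 without SLE1.2.3 mice 2 and 3, and between 240 and 3701 when single mice were left out. The split was 990 and 351 with a common FPKM sum, 1035 and 785 by median ratio, 921 and 881 by quantiles and 884 and 650 with voom. A common FPKM sum moved the median of all tested genes to 0.11 on the log2 scale, and the common ribosomal protein total moved it to 0.16. The common FPKM sum lowered Control mouse 3 alone, by a factor of 0.8266. That library had an FPKM sum of 386361, against 297266 to 313550 in every other library. Array weights favoured SLE1.2.3 mouse 2, with a weight of 7.09 against 0.285 and 0.407 for mice 1 and 3.

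Of the 81 ribosomal protein genes 0 passed. The count was 1 with a pseudocount of 0.1 or a common FPKM sum (Rpl39l), 1 with a common ribosomal protein total, 1 with no variance trend (Rpl36al), 24 with array weights (3 higher and 21 lower), and between 0 and 23 when single mice were left out. Their median log2 change was between -0.30 and -0.02 when single mice were left out, 0.11 without SLE1.2.3 mice 2 and 3, and between -0.19 and 0.005 under the other alternatives. The log2 ratio of the summed level was 0.12 without SLE1.2.3 mice 2 and 3, and between -0.31 and -0.02 without a single mouse. Quantile normalization was not run for the sum. In the other lists, where 24 passed, the count was 10 with no filter, 9 with a common FPKM sum, 7 with a common ribosomal protein total, 112 with array weights, 10 without SLE1.2.3 mice 2 and 3, and between 1 and 72 when single mice were left out. These alternatives for the other lists were added after seeing the data.

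Of 556 refits of the 28 named ribosomal protein genes 484 kept their side of the threshold and direction, 29 newly passed and 43 turned their sign. Of 498 refits of 25 named genes of the other lists 141 lost their call and 10 turned their sign. Of the called genes among these 25, Map3k20, Mycn, Phlda3, Lamtor4, Gas5 and Rpl35a-ps2 kept their call with a common FPKM sum. The rest lost it there, and only Phlda3 passed in all 6 fits without a mouse. No gene passed with a turned sign. With a common FPKM sum the log2 change was 0.015 for Rplp0, 0.046 for Rps27, 0.011 for Rps6, 0.083 for Rack1 and 0.074 for Fau. With a common ribosomal protein total it was 0.021 for Rpl4, 0.0047 for Rps15, 0.039 for Rps3a1, 0.070 for Rplp0, 0.055 for Rpl22, 0.10 for Rps27, 0.066 for Rps6, 0.015 for Rps14, 0.14 for Rack1 and 0.13 for Fau. By quantiles it was -0.037 for Rps10, 0.018 for Rps27 and 0.060 for Fau, and with array weights -0.030 for Rps10. The cause was not tested.

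Without SLE1.2.3 mice 2 and 3 the log2 change was 0.013 for Rpl36a, 0.047 for Rps16, 0.030 for Rpl3, 0.12 for Rpl4, 0.13 for Rps15, 0.041 for Rps3a1, 0.17 for Rplp0, 0.093 for Rplp1, 0.094 for Rplp2, 0.019 for Rpl24, -0.046 for Rpl7l1, 0.053 for Rpl7, 0.050 for Rpl22l1, 0.21 for Rpl22, 0.12 for Rpl39, 0.33 for Rps27, 0.11 for Rpl5, 0.062 for Rpl11, 0.10 for Rps19, 0.18 for Rps6, 0.19 for Rps14, 0.068 for Rpsa, 0.26 for Rack1 and 0.37 for Fau. When single mice were left out it lay between -0.24 and 0.049 for Rplp0, -0.021 and 0.043 for Rps10, -0.021 and 0.093 for Rpl7l1, -0.28 and 0.042 for Rpl22, -0.27 and 0.12 for Rps27, -0.25 and 0.038 for Rps6, -0.18 and 0.12 for Rack1 and -0.25 and 0.15 for Fau.

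SLE1.2.3 and Control mice share replicate numbers but not animals, so the numbers do not pair animals. Same-numbered libraries deviated from their group means with correlations of -0.00401, 0.1 and 0.0914. The SLE1.2.3 libraries of mice 2 and 3 correlated best with the Control library of their own number, and that of mouse 1 did not. Whether libraries of the same number shared a batch was not tested. With the mouse number as a replicate block 940 genes passed over all tested genes, 1 ribosomal protein gene (Rpl39l) and 12 genes of the other lists. Depth, at least 29.73 times 1000000 assigned reads a library, limits mainly Rpl39l, Rpl24, Rps10, Rpl36al and Rpl3l.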
